A study of Mus musculus with 12 samples.

Results

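Chromatin opening was examined around 10 genes of the IL-7 receptor and STAT5 pathway (Il7r, Jak1, Jak3, Stat5a, Stat5b, Socs1, Socs2, Socs3, Cish and Bcl2) in 12 DNase-seq libraries of mouse progenitors and early T cell precursors. Members were all DNase I hypersensitive sites (DHSs) that lay within 50 kb either side of the body of a listed gene (mm10, GENCODE M21). They numbered 309 of the 170207 DHSs formed by merging overlapping peaks of all libraries. DNase-seq cuts nuclei with DNase I, and places where many cuts pile up are called as peaks of open chromatin. A DHS near a gene was assigned by distance alone, so it need not act on that gene. The Stat5a and Stat5b windows overlapped and shared 27 DHSs.

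All cells came from C57BL/6J mice (ages are not given in the sources used here). LSK cells (3 libraries) were freshly sorted Lin-SCA1+KIT+ marrow progenitors. DN1 (2 libraries, KIT++CD44+CD25-), DN2a (2 libraries, KIT++CD44+CD25+) and DN2b (2 libraries, KIT+CD44loCD25+) cells were sorted after LSK cells had been cultured on the immobilised Notch ligand Delta1 with SCF, FLT-3 ligand, IL-6 and IL-11. IL-7 was added to the Delta1 cultures that gave the DN2a and DN2b cells but not to those that gave DN1. IgG libraries (3) came from LSK cells cultured on immunoglobulin with no ligand, in medium that by the methods held the same growth factors. The methods give IL-7 for Delta1 cultures alone. A difference of the DN2 libraries from DN1 therefore cannot be assigned to stage or to IL-7, which cannot be told apart, and a difference from IgG also includes Notch ligand. Cells of several DN stages were taken from 1 LSK isolate in turn, the labels do not say which libraries share one, and tests treated libraries as independent.

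IL-7 binds a receptor made of IL7R and the common gamma chain. The kinases JAK1 and JAK3, held by these chains, then phosphorylate STAT5A and STAT5B, which enter the nucleus and bind DNA. CISH and the SOCS proteins are induced by cytokine signals and restrain them, and BCL2 protects lymphocytes from apoptosis. IL-7 is required for the survival and expansion of early T cell precursors.

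Values are score percentiles. Each deposited peak carries a whole-number score, and its rank within its own library was expressed as a percentile, with 0 for a library without a peak at the DHS. Read depth is unknown. The lists held from 32952 peaks (IgG replicate 2) to 111582 peaks (DN2b replicate 2), so results were also computed on the 32952 highest-scoring peaks of every library, called equal list lengths. The IgG lists were the 3 shortest. Promoters of 7 T lineage marker genes were checked against the labels. Of these, 1 was open in each LSK library, 3 in each DN1 library, 5 in each DN2a library, 5 to 6 in the DN2b libraries and none in the IgG libraries, with Il2ra (CD25) and Cd3e open in the DN2a and DN2b libraries alone. Of 6 myeloid promoters, 0 to 1 were open in LSK, 1 to 2 in DN1, 1 to 2 in DN2a, 2 to 3 in DN2b and 3 to 4 in IgG libraries. Of 6 stem and progenitor promoters, 4 were open in each LSK, DN1 and DN2b library, 3 to 4 in DN2a and 2 to 3 in IgG. Of 4 mast cell and basophil promoters, 1 was open in each LSK library, 2 in DN1 and DN2a, 2 to 3 in DN2b and 0 to 1 in IgG, and Ms4a2 was open in none. Of 4 B lineage promoters, Ebf1 was the 1 open, in every LSK, DN1, DN2a and DN2b library and in IgG replicate 3, while Cd79a and Pax5 were open in none. Of 3 erythroid promoters, Klf1 was open in DN1 replicate 1 alone, and Gata1 and Hba-a1 were open in none. The part of these cell types in the results was not tested.

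Sequences of DHSs with large DN2 differences are given first. The 8 below are the named DHSs with the largest differences between DN2 and the other libraries. Each is the 150 bp of the highest-scoring peak (GRCm38, the assembly of mm10, plus strand). Capitals mark exact matches on either strand to short letter strings read by STAT, RUNX, RBPJ, GATA, TCF1 and E proteins, which are spelled out after the sequences.
Cish +38.5 kb (chr9:107334437-107334586): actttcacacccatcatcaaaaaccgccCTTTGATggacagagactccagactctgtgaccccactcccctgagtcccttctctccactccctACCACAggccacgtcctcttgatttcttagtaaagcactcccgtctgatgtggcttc
Bcl2 +107 kb (chr1:106607057-106607206): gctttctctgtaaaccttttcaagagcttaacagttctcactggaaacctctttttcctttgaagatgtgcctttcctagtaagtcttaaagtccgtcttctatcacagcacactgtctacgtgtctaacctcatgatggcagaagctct
Stat5a +29.7 kb (chr11:100888937-100889086): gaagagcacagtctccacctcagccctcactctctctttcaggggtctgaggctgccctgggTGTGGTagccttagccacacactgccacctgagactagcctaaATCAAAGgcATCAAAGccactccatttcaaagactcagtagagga
Cish +37.9 kb (chr9:107333817-107333966): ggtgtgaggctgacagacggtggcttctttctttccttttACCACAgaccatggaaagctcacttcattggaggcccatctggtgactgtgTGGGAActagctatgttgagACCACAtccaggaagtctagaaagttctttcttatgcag
Bcl2 +101 kb (chr1:106612717-106612866): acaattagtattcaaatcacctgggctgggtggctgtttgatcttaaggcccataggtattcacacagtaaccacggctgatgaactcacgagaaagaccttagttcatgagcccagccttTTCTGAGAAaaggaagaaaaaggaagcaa
Stat5a -35.2 kb (chr11:100824077-100824226): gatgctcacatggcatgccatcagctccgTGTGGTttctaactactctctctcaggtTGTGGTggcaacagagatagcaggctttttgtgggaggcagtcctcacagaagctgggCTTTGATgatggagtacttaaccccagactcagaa
Jak1 +77.7 kb (chr4:101187477-101187626): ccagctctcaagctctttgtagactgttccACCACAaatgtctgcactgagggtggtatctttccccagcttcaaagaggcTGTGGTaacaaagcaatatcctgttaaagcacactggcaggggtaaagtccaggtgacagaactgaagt
Il7r +57.8 kb (chr15:9472317-9472466): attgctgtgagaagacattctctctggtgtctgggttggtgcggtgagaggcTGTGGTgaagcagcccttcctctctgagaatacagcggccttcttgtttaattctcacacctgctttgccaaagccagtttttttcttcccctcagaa

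Positions in these names are the distance of the DHS from the start of the gene, positive in the direction of transcription. RUNX letters were in 6 of these 8 peaks, at a pair of places in 3 of them, TCF1 letters were in 3, and among the 8 STAT letters stood in the Bcl2 +101 kb peak alone. The STAT string TTCNNNGAA was in 18 of the 309 members (5.83%), against 4.81% of all DHS peaks. For RUNX the string was TGTGGT, found in 73 members (23.6%) against 23.1%. The RBPJ core TGGGAA, which Ikaros also reads and which overlaps some STAT matches, was in 40 (12.9%) against 12.8%. For GATA factors it was AGATAA, in 24 (7.77%) against 8.29%. The TCF1 string CTTTGAT was in 11 (3.56%) against 2.83%. E proteins were given CAGCTG, in 45 (14.6%) against 11.5%. The shares over all 309 members were close to those of all peaks. Of the 13 called members, 6 held the RUNX string and 3 the TCF1 string, too few to read a share from. A match describes letters in the window and not a bound site.

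The question posed by the groups was which of these DHSs were open to a higher rank in DN2 cells, the cells grown with IL-7. Of the 309 members, 185 had a peak in at least 3 libraries and were tested, and 124 were not. In a two-sided exact permutation test over libraries, 4 DN2 against 8 others, 13 DHSs were higher in DN2 (7.03%, against 4.21% of all DHSs tested). None was lower (against 0.726%). Each of the 13 had an adjusted p of 0.0409, which went with the smallest unadjusted p the design allowed, 0.00202. Calls fell to 0 over all DHSs, members included, with no filter, with presence of a peak as the value, and with DN2 against LSK and DN1 only. The 13 were in or near Bcl2 (5), the Stat5a and Stat5b pair (3), Jak1 (2), Cish (2) and Socs2 (1). Of the 13, 3 had no peak outside DN2 and so entered the test through DN2 alone, where a difference is built in. Only 2 of the 13 had peaks in at least 3 libraries outside DN2. All the others needed their high DN2 peaks to enter the test, so their calls describe them and do not test them. Among tested members with a peak outside DN2, 10 of 176 were called (5.68%, against 2.87% of all such DHSs). Among those with peaks in at least 3 libraries outside DN2, 2 of 135 were called (1.48%, against 0.653%). Without adjustment, 49 members were higher and 4 lower at p below 0.05, together 28.6% of members against 20.6% of all DHSs. The median difference was 11.5 percentile points over the members and 6.29 over all DHSs. At equal list lengths, 18 of 127 members tested were higher (14.2%, against 7.57%) and 2 were lower (1.57%, against 2.16%), with a median difference of 5.71 against -1.86 over all DHSs. How many of these 18 needed their DN2 peaks to enter the test was not counted. Their share is therefore a description and not a test of the members. Calls by adjusted p sat at the smallest p possible, and leaving out any 1 library except DN1 replicate 1 left 0 calls, among the members and over all DHSs alike. In those 11 cases 30 to 55 members were higher at unadjusted p below 0.05. Without DN1 replicate 1 there were 16 calls (9.14%, against 7.04%), and 65 members were higher at unadjusted p below 0.05. The unadjusted counts with a library left out have no share over all DHSs beside them, so they are not a result about the members.

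None of the 13 DHSs lay within 1 kb of the start of a coding gene, against 7.62% of the 3741 DHSs called higher genome wide. None had a peak in an IgG library (against 4.06%) and 2 had a peak in an LSK library (against 15.3%). Peaks were present in DN1 at 10 of the 13 (against 62.5%), in both DN1 libraries at 7 (against 35.3%). The mean of the DN2b libraries was above that of the DN2a libraries at 12 (against 91.2%). The counts of members are descriptions and were not tested against these shares. At equal list lengths 10 of the 13 could be tested and 8 of them were called. All 8 needed their DN2 peaks to enter the test there, so those calls describe them and do not test them. The heat map of percentiles shows these DHSs beside the promoters.

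**Figure D1:**
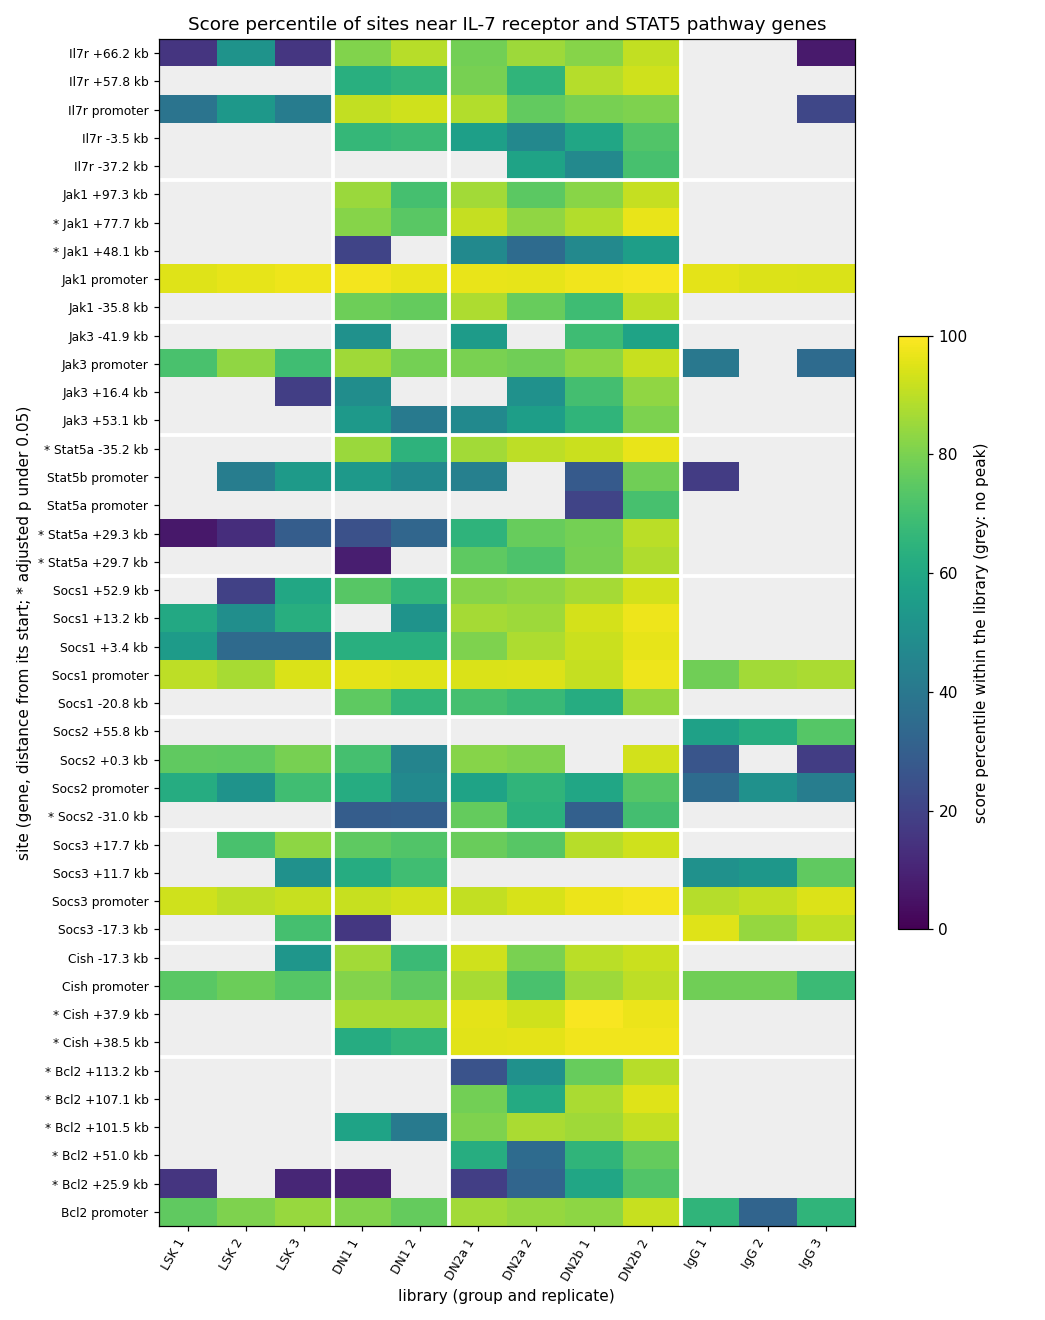
Score percentile within each library (colour, 0 to 100; grey, no peak) for promoter DHSs, DHSs with the largest differences, DHSs with an adjusted p under 0.05 and DHSs present in all 6 Delta1-cultured libraries alone. Columns are libraries, rows are labelled by gene and distance from its start, and asterisks mark the 13 DHSs with an adjusted p under 0.05, which are grey in all 3 IgG libraries.

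Presence of peaks gave the same members a simpler reading. All 6 Delta1-cultured libraries and no LSK or IgG library had a peak at 12 members (3.88%, against 1.9% of all DHSs). These lay near Il7r (2), Jak1 (3), Jak3, the Stat5 pair, Socs1, Socs2, Cish (2) and Bcl2. All 4 DN2 libraries and no other had a peak at 3 members (0.971%, against 0.758%), and all 3 lay in Bcl2. All 3 IgG libraries and no other had a peak at 10 members (3.24%, against 1.89%), and the 3 LSK libraries alone at 2 (0.647%, against 0.649%). Every library outside IgG, and none within it, had a peak at 9 members (2.91%, against 3.17%), and all 12 libraries at 21 (6.80%, against 7.68%). The last 3 shares were near the background on the deposited lists, as was the DN2-only share. With equal lengths the Delta1 pattern was at 7 members (3.57%, against 1.85%), the DN2-only pattern at 4 (2.04%, against 1.98%) and the IgG-only pattern at 14 (7.14%, against 6.23%), so that the IgG-only share was then near the background. LSK alone had 3 (1.53%, against 1.84%), every library outside IgG had 5 (2.55%, against 1.94%) and all 12 libraries had 19 (9.69%, against 14.2%), which was below the background.

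Pairs of groups were then set apart by whether their percentiles overlapped, as a description, since 4 libraries against 2 or 3 allow no p below 0.0667 or 0.0286. Every DN2 value was above every DN1 value at 23 members (12.4%, against 5.95% of all DHSs) and below them at 12 (6.49%, against 16.4%). With equal lengths these were 28 (22.0%, against 12%) and 5 (3.94%, against 15.2%). DN2 libraries were above LSK at 40 (21.6%, against 16%) and below at 7 (3.78%, against 9.03%), or 26 (20.5%, against 15.4%) and 11 (8.66%, against 18.5%) at equal lengths. They were above IgG at 64 (34.6%, against 32%) and below at 18 (9.73%, against 7.99%), or 37 (29.1%, against 22.8%) and 28 (22.0%, against 21.3%) at equal lengths. DN2b libraries were above DN2a at 57 (30.8%, against 21.2%) and below at 4 (2.16%, against 3.8%), or 32 (25.2%, against 14.5%) and 5 (3.94%, against 16.7%). As a ratio to the background, the share of higher members was largest against DN1 and smallest against IgG at both list lengths. The first 3 comparisons share the DN2 libraries.

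Il7r (chr15:9505788-9530176, minus strand) encodes the chain of the receptor that binds IL-7. Its promoter had percentiles of 38.6, 53.5 and 42.0 in LSK, 90.8 and 92.9 in DN1, 88.5 and 75.9 in DN2a, 79.7 and 80.6 in DN2b, and 0, 0 and 21.2 in IgG. The promoter ranked highest in DN1, the Delta1 culture without IL-7, and on the deposited lists the DN1, LSK and IgG values did not overlap each other. DN2 values there lay below DN1 and above LSK without overlap. With lists of equal length the promoter scored 73.1 and 85.0 in DN1, 76.2 and 57.8 in DN2a, and 62.1 and 34.2 in DN2b, against 0, 23.0 and 0 in LSK and 0, 0 and 10.3 in IgG. DN1 and DN2a then overlapped, as did LSK and IgG. DN2 against the other 8 libraries gave a difference of 38.8 with p = 0.0707 (exact permutation, two-sided, n = 4 and 8), adjusted p = 0.444. Against LSK and DN1 only the difference was 17.6.

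A DHS 3.46 kb upstream of the Il7r start (chr15:9533517-9533766) had no peak in any LSK or IgG library. It scored 66.6 and 68.4 in DN1, 56.5 and 46.5 in DN2a, and 59.0 and 73.0 in DN2b. The DHS 57.8 kb downstream of the start, past the end of the gene (chr15:9472277-9472466), was likewise absent from LSK and IgG and scored 63.2 and 65.9 in DN1, 79.3 and 65.3 in DN2a, and 88.9 and 92.7 in DN2b. Its difference of 65.4 had an adjusted p of 0.0653 on the deposited lists and 0.0246 at equal list lengths (exact permutation). Outside DN2 it had peaks in DN1 alone, so it needed its DN2 peaks to enter the test. With no filter its adjusted p was 0.125 (exact permutation). DN2b stood above DN1 there, whereas the DHS near the promoter had overlapping DN1 and DN2 values. Intronic DNA of the neighbouring gene Capsl, 66.2 kb downstream, held a DHS that scored 15.3, 51.4 and 16.0 in LSK, 80.9 and 89.1 in DN1, 78.6 to 90.7 in the DN2 libraries and 0, 0 and 7.20 in IgG. A DHS 37.2 kb upstream had peaks only in DN2a replicate 2 (57.9) and DN2b (47.0 and 70.8). Its difference was 43.9 on the deposited lists and 7.21 at equal list lengths.

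The number of DHSs with a peak in the Il7r window was 3 in each LSK library, 10 and 7 in DN1, 5 and 7 in DN2a, 9 and 15 in DN2b, and 0, 2 and 3 in IgG. The counts at equal list lengths were 0, 2 and 0 in LSK, 3 and 4 in DN1, 4 and 5 in DN2a, 7 and 6 in DN2b, and 0, 2 and 1 in IgG. The Delta1-cultured libraries thus exceeded LSK and IgG at both list lengths. DN2 against the others gave p = 0.0404 on the deposited lists and 0.00404 at equal lengths (exact permutation, two-sided, n = 4 and 8), with an adjusted p of 0.383 on the deposited lists.

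Across the 10 windows, 4 had more DHSs in DN2 at an unadjusted exact permutation p below 0.05 (Il7r, Stat5a, Stat5b and Bcl2), against 11.8% of all genes. At equal list lengths 4 did (Il7r, Stat5a, Stat5b and Socs1), against 11.5%. No window and no gene genome wide passed adjustment (0% of genes at either list length). Stat5a and Stat5b share DHSs and are not independent here.

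**Figure D2:**
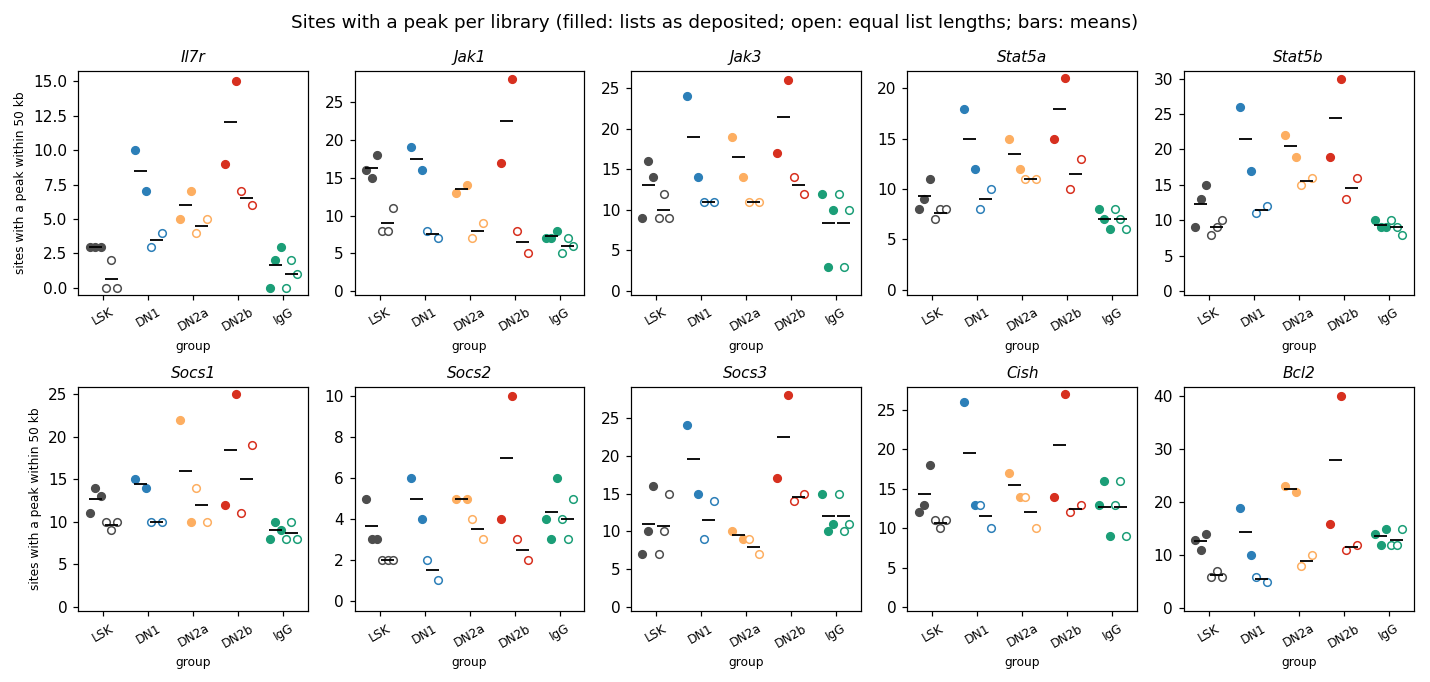
Number of DHSs with a peak within 50 kb of each gene (vertical axis, its own range in each panel) by group. Each point is a library, filled for the deposited lists and open for equal list lengths, and bars are group means. Bcl2 reaches 40 in DN2b replicate 2, and its open points are highest in IgG.

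Of the kinases, Jak1 (chr4:101152367-101265282, minus strand), which couples many cytokine receptors to STATs, had a promoter near the top of every list, from 94.4 in IgG replicate 3 to 98.6 in DN2b replicate 2. Its introns held DHSs that were absent from LSK and IgG. The DHS at +77.7 kb (chr4:101187457-101187626) scored 82.0 and 74.6 in DN1, 91.2 and 83.4 in DN2a, and 88.4 and 96.7 in DN2b. Every DN2 library stood above every DN1 library, with a mean of 89.9 ± 5.53 (SD, n = 4) in DN2 against 19.6 ± 36.3 (SD, n = 8) in the others and an adjusted p of 0.0409 (exact permutation). Outside DN2 this DHS had peaks in DN1 alone, so it needed its DN2 peaks to enter the test. With no filter its adjusted p was 0.0784 (exact permutation). The DHS at +97.3 kb scored 85.0 and 70.6 in DN1, 86.0 and 75.0 in DN2a, and 82.3 and 91.4 in DN2b, so that DN1 and DN2 overlapped. Upstream of the gene, at -35.8 kb, a DHS also absent from LSK and IgG scored 77.8 and 76.2 in DN1 and 68.9 to 90.4 in DN2.

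The other Jak1 DHS with an adjusted p of 0.0409 (exact permutation, n = 4 and 8), at +48.1 kb, was weaker. Its only peak outside DN2 was in DN1 replicate 1, so it needed its DN2 peaks to enter the test. With no filter its adjusted p was 0.0784 (exact permutation). It scored 20.5 and 0 in DN1, 47.4 and 35.1 in DN2a, and 47.0 and 55.9 in DN2b, and at equal list lengths only DN2b replicate 1 kept a peak. A Jak1 DHS at +110 kb had higher ranks outside DN2. LSK scored 70.1, 57.2 and 59.8, DN1 31.5 and 0, IgG 44.5, 38.2 and 77.2, and no DN2 library had a peak (p = 0.0121, adjusted p = 0.134, exact permutation).

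Jak3 (chr8:71676296-71690575, plus strand), the kinase bound to the common gamma chain, had a promoter percentile of 71.3, 83.3 and 69.4 in LSK, 85.9 and 79.3 in DN1, 80.0 and 78.5 in DN2a, 82.9 and 91.7 in DN2b, and 39.9, 0 and 34.9 in IgG. The IgG libraries lay below all others, and of the rest only DN2a and DN2b did not overlap. No Jak3 DHS passed adjustment. The widest difference, 50.5 at +53.1 kb (chr8:71729277-71729466), was at a DHS 3.66 kb from the start of Fcho1. That DHS was absent from LSK and IgG and scored 53.7 and 40.7 in DN1, 47.4 and 56.2 in DN2a, and 65.6 and 80.1 in DN2b (adjusted p = 0.0653, exact permutation). It needed its DN2 peaks to enter the test. Its difference at equal list lengths was 22.9 (adjusted p = 0.103, exact permutation). DHSs at -41.9 kb in Unc13a and at +16.4 kb in B3gnt3 had peaks in 3 of the 4 DN2 libraries each, and in 1 and 2 of the other libraries.

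Stat5a (chr11:100859351-100885169, plus strand) and Stat5b (chr11:100780731-100850724, minus strand) encode both STAT5 proteins and lie head to head. The Stat5a promoter had a peak only in the DN2b libraries, at 20.4 and 70.8. The Stat5b promoter scored 0, 42.2 and 54.6 in LSK, 53.7 and 47.4 in DN1, 43.5 and 56.2 in DN2a, 30.8 and 78.5 in DN2b, and 17.9, 0 and 0 in IgG. On the deposited lists IgG overlapped LSK alone, and the other groups overlapped each other. At equal list lengths every group held a library at 0, so that all groups overlapped. The DN2 difference was 25.3 on the deposited lists and 9.51 at equal list lengths.

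An intron of Stat5b held the DHS at -35.2 kb from the Stat5a start (chr11:100824037-100824226), absent from LSK and IgG. It scored 85.0 and 64.6 in DN1, 86.0 and 90.1 in DN2a, and 91.9 and 96.7 in DN2b, with a difference of 72.5 and an adjusted p of 0.0409 (exact permutation, n = 4 and 8). Outside DN2 it had peaks in DN1 alone, so it needed its DN2 peaks to enter the test. With no filter its adjusted p was 0.0784 (exact permutation). The other called pair lay beyond Stat5a, in Stat3, the gene of another STAT that IL-6 activates. The DHS at +29.7 kb (chr11:100888877-100889166, Stat3 intron) scored 75.4 and 72.1 in DN2a and 79.7 and 88.2 in DN2b, while the only other peak was 8.33 in DN1 replicate 1. Its neighbour at +29.3 kb (Stat3 UTR) was present outside IgG at low rank, from 6.47 to 33.0 in LSK and DN1, and scored 64.9 and 76.8 in DN2a and 79.0 and 89.6 in DN2b. All DN2 values lay far above DN1 at this pair, and both DHSs were also called at equal list lengths (adjusted p = 0.0246, exact permutation). The DHS at +29.7 kb needed its DN2 peaks to enter the test at either list length. At equal list lengths the DHS at +29.3 kb kept no peak outside DN2, so there it entered the test through DN2 alone. With no filter both DHSs had an adjusted p of 0.0784 (exact permutation). Whether they act on Stat3, Stat5a or neither is not shown by a peak list. A DHS in an intron of Stat5b, 11.2 kb upstream of the Stat5a start, had peaks in IgG alone, at 44.5, 32.4 and 34.9.

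The Stat5b window held 9, 13 and 15 DHSs with a peak in LSK, 26 and 17 in DN1, 22 and 19 in DN2a, 19 and 30 in DN2b, and 10, 9 and 9 in IgG. DN1 and DN2 overlapped. The counts at equal list lengths were 8, 9 and 10 in LSK, 11 and 12 in DN1, 15 and 16 in DN2a, 13 and 16 in DN2b, and 10, 9 and 8 in IgG. All DN2 libraries were then above all others (p = 0.00202, the smallest the exact permutation test can give with n = 4 and 8).

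The feedback genes had promoters that were already open. The Socs1 promoter ranged from 78.4 to 97.5, the Socs3 promoter from 89.0 to 98.4 and the Cish promoter from 68.1 to 90.0 over the 12 libraries. Cish, named as a cytokine-inducible SH2 protein and a STAT5 target, scored 74.5, 77.7 and 73.6 in LSK, 81.5 and 75.4 in DN1, 87.1 and 71.1 in DN2a, 85.3 and 90.0 in DN2b, and 78.4, 78.1 and 68.1 in IgG. The groups overlapped on the deposited lists except DN2b, which lay above LSK, DN1 and IgG. With lists of equal length DN2b scored 72.6 and 66.1 and IgG 75.4, 78.1 and 63.7, which overlapped, and DN1, at 45.9 and 48.2, lay below every other group. The DN2 difference was 7.46 (p = 0.0586, adjusted p = 0.429, exact permutation). It was 11.6 without DN2a replicate 2 and 14.9 in the upper 50% of each list.

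The Socs2 promoter was also open in all 12 libraries. It scored 75.5, 75.1 and 79.4 in LSK, 70.7 and 47.4 in DN1, 82.0 and 80.7 in DN2a, 93.5 and 93.4 in DN2b, and 34.9, 50.5 and 42.4 in IgG. Every DN2 library stood above every other library and DN2b above DN2a. The difference of 27.9 had p = 0.0121 on the deposited lists and 35.4 with p = 0.0162 at equal list lengths (exact permutation, n = 4 and 8), and did not pass adjustment (adjusted p = 0.358). It was 17.8 against LSK and DN1 only and 49.4 in the upper 50% of each list. These values take the highest peak within 1 kb of the start, where several DHSs lie. The DHS at +0.288 kb had no peak in DN2b replicate 1, and that at -0.912 kb differed by 11.5 (adjusted p = 0.315) on the deposited lists and by -4.73 (adjusted p = 0.767) at equal list lengths (exact permutation).

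Of the 9 member promoters that could be tested, none passed adjustment, as did no promoter genome wide (0% at either list length). Socs2 was the 1 with an unadjusted p below 0.05 (against 8.66% of all promoters). Socs2 and Bcl2 were the 2 at equal list lengths (against 7.69%).

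**Figure D3:**
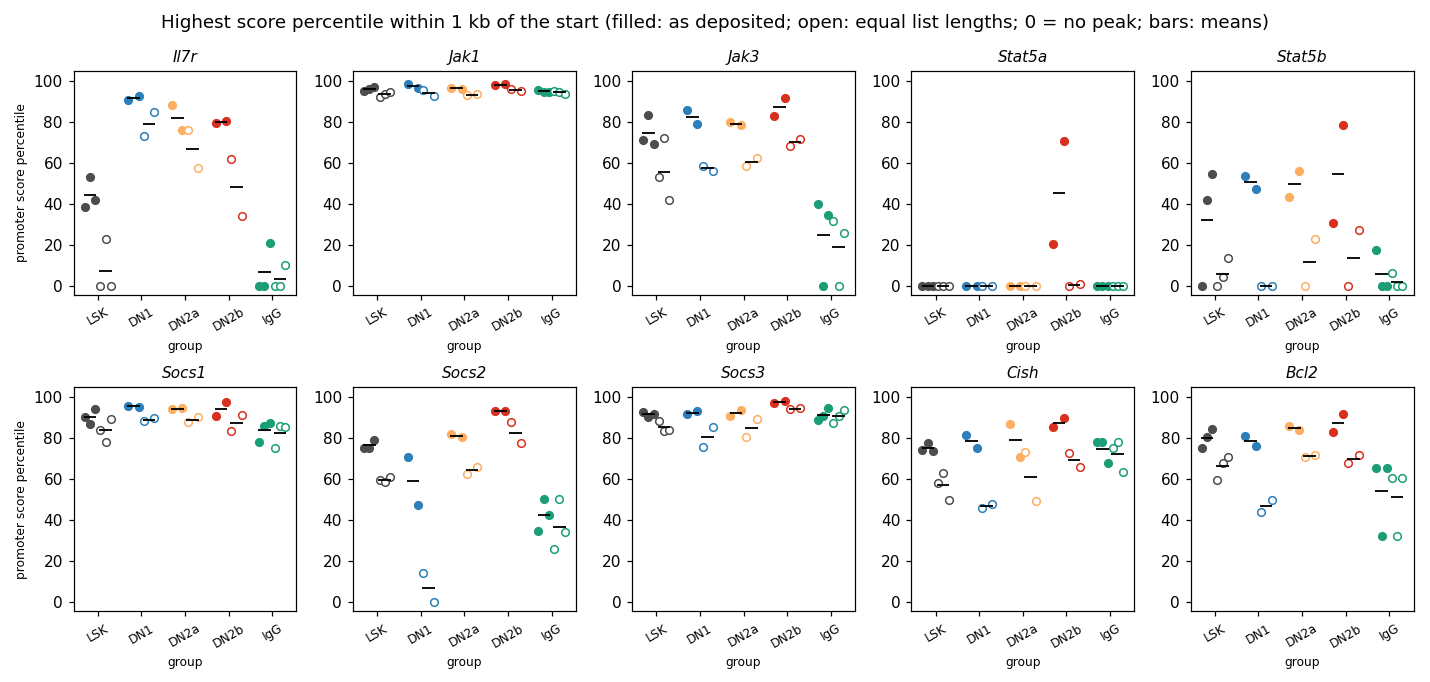
Highest score percentile of a peak within 1 kb of the start of each gene (vertical axis, 0 where no peak) by group. Each point is a library, filled for deposited lists and open for equal list lengths, with bars for means. The Il7r promoter is highest in DN1, Socs2 is highest in DN2b, and Jak1 is near the top in all libraries.

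The widest Cish differences lay in the neighbouring gene Hemk1. The DHS at +38.5 kb (chr9:107334437-107334626) was absent from LSK and IgG and scored 62.0 and 65.9 in DN1, 95.7 and 96.0 in DN2a, and 97.9 and 98.0 in DN2b. The DHS at +37.9 kb (chr9:107333797-107333986), in the same gene, scored 86.7 and 86.9 in DN1, 96.0 and 92.7 in DN2a, and 99.0 and 97.2 in DN2b. DN2 values exceeded DN1 values at both, by the wider margin at +38.5 kb. Differences from the other 8 libraries were 80.9 and 74.5, with adjusted p = 0.0409 for each and 0.0246 at equal list lengths (exact permutation). Outside DN2 both had peaks in DN1 alone, so both needed their DN2 peaks to enter the test. With no filter each had an adjusted p of 0.0784 (exact permutation). These DHSs were 3.84 and 4.46 kb from the start of Hemk1, which is nearer than Cish. A DHS at -17.3 kb in Mapkapk3 scored 52.7 in 1 LSK library, 86.3 and 68.4 in DN1 and 80.0 to 92.7 in DN2, and DN1 overlapped DN2.

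Letters of the STAT element were present at Cish near and beyond the promoter, and are shown because Cish is the textbook STAT5 target. They were chosen after the matches were seen. The promoter DHS (+0.646 kb from the GENCODE start) held a pair of TTCNNNGAA matches, in capitals, within 30 bases of the RefSeq promoter. Of 32851 RefSeq promoters of 300 bases (GRCm38), 8.3% held at least 1 match and 0.457% held 2 or more. Among the 9 members with a RefSeq promoter, Il7r and Socs3 held 1 each, Cish 2 and the others none. A DHS at +17.0 kb of Cish and 1 at +13.2 kb of Socs1 held 1 and 2 matches. A Socs2 promoter DHS and a DHS in the Bcl2 window also held 2 each, and are not shown.
Cish promoter (chr9:107296654-107296683): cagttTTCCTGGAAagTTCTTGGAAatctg
Cish +17.0 kb (chr9:107312957-107313106): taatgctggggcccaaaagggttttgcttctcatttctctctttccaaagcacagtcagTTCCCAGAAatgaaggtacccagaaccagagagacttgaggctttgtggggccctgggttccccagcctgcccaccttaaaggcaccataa
Socs1 +13.2 kb (chr16:10772237-10772386): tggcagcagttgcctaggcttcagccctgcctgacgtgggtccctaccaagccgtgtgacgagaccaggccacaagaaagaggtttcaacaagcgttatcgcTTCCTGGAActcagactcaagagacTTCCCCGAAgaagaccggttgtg

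The Cish DHS at +17.0 kb (chr9, as above) was open in all 12 libraries. It scored 78.9, 87.9 and 84.1 in LSK, 93.5 and 86.9 in DN1, 96.2 and 95.8 in DN2a, 98.8 and 99.3 in DN2b, and 60.1, 76.3 and 61.4 in IgG. All DN2 values were above all others (adjusted p = 0.134 on the deposited lists and 0.0246 at equal list lengths, exact permutation).

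Socs1 (chr16:10782240-10785536, minus strand), a strong inhibitor of JAK activity, had its largest differences at 3 DHSs that ranked higher in DN2. At +13.2 kb, LSK scored 60.4, 49.3 and 62.8, DN1 0 and 51.5, DN2a 86.5 and 85.3, DN2b 93.5 and 97.5, and IgG had no peak. At +3.44 kb, LSK scored 54.9, 34.5 and 34.7, DN1 63.2 in both libraries, DN2a 80.7 and 87.7, DN2b 91.9 and 96.4, and IgG had no peak. At +52.9 kb, in Clec16a, LSK scored 0, 19.3 and 59.8, DN1 74.2 and 65.9, DN2a 82.0 and 83.4, DN2b 86.4 and 93.0, and IgG had no peak. At all 3 DHSs every DN2 value exceeded every other value. Adjusted p-values were 0.0653, 0.0861 and 0.134 on the deposited lists and 0.0246 for each at equal list lengths (exact permutation). At equal list lengths the DHS at +3.44 kb needed its DN2 peaks to enter the test. A DHS at -20.8 kb, which is 0.453 kb from the start of Prm1, was absent from LSK and IgG and scored 75.0 and 65.9 in DN1 and 61.8 to 84.2 in DN2.

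Socs2 (chr10:95385362-95417180, minus strand), which restrains growth hormone and cytokine signals, had 1 called distal DHS at -31.0 kb (chr10:95448117-95448306). It scored 29.4 and 30.5 in DN1, 76.2 and 63.9 in DN2a, and 30.8 and 70.0 in DN2b, with none in LSK or IgG. This DHS therefore needed its DN2 peaks to enter the test. DN2b replicate 1 was barely above DN1, and at equal list lengths only the DN2a libraries kept a peak there.

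Socs3 (chr11:117966079-117970047, minus strand), a feedback inhibitor of IL-6 family signals, had no called DHS and its widest differences ran in both directions. At +11.7 kb no DN2 library had a peak, while DN1 scored 62.0 and 69.5, IgG 50.7, 52.8 and 75.4, and LSK 0, 0 and 50.7. At -17.3 kb, in Pgs1, the IgG libraries scored 95.0, 84.0 and 90.6, LSK replicate 3 scored 70.5, DN1 replicate 1 scored 16.1, and no other library had a peak. At +17.7 kb the DN2 libraries scored 74.1 to 92.7, DN1 75.0 and 72.7, LSK 0, 71.1 and 82.9, and IgG had no peak. The differences were -45.1, -44.5 and 45.6, none with an adjusted p under 0.231 on the deposited lists (exact permutation). With lists of equal length they were -26.4, -39.0 and 41.9, with adjusted p-values of 0.343, 0.468 and 0.117 (exact permutation).

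Bcl2 (chr1:106538178-106714274, minus strand) encodes the survival protein that counters BAX and BIM at mitochondria. Its promoter scored 75.5, 80.6 and 84.7 in LSK, 80.9 and 76.2 in DN1, 86.0 and 84.1 in DN2a, 82.9 and 91.7 in DN2b, and 65.3, 32.4 and 65.5 in IgG. On the deposited lists the IgG values lay below the rest, and DN2 lay above DN1 but overlapped LSK. At equal list lengths IgG scored 60.5, 32.4 and 60.8, DN1 44.2 and 49.9, and LSK 59.9, 68.0 and 71.0. IgG then overlapped DN1 and LSK. The DN2 difference of 16.0 on the deposited lists had p = 0.0707 (exact permutation), adjusted p = 0.444. It was 10.6 without IgG replicate 2, 6.59 against LSK and DN1 only and 27.7 in the upper 50% of each list.

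Its introns held 5 called DHSs. Of these, 3 had peaks throughout the 4 DN2 libraries and nowhere else. They entered the test through DN2 alone, so their calls carry no weight and their values are given as a description. At +107 kb (chr1:106607017-106607206) DN2a scored 78.6 and 61.0 and DN2b 87.5 and 95.2. At +113 kb (chr1:106600997-106601166) DN2a scored 25.5 and 50.6 and DN2b 76.8 and 89.3. At +51.0 kb (chr1:106663117-106663306) DN2a scored 62.3 and 35.1 and DN2b 65.6 and 76.2. DN2b exceeded DN2a at all 3. At equal list lengths the DHS at +107 kb kept its peak in all 4 DN2 libraries, while those at +113 kb and +51.0 kb lost 1 DN2a library each.

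Also in Bcl2, the DHS at +101 kb (chr1:106612717-106613026), which holds the STAT letters shown above, scored 58.0 and 40.7 in DN1, 80.7 and 87.1 in DN2a, and 85.9 and 90.7 in DN2b, with none in LSK or IgG. It was also called at equal list lengths (adjusted p = 0.0246, exact permutation). Outside DN2 it had peaks in DN1 alone, so it needed its DN2 peaks to enter the test. With no filter its adjusted p was 0.0784 (exact permutation). The fifth, at +25.9 kb, had low ranks in LSK (15.3, 0 and 10.9) and DN1 (10.04 and 0), with 18.4 and 32.6 in DN2a and 59.0 and 73.0 in DN2b. DN2a replicate 1 was there only slightly above LSK replicate 1. At equal list lengths the DHS at +25.9 kb kept a peak in the DN2b libraries alone and was not tested. With no filter its adjusted p was 0.0784 (exact permutation).

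The same window held 6 of the 10 DHSs found in all IgG libraries alone. They scored 54.0, 56.9 and 82.5 at +18.3 kb, 55.6, 20.03 and 59.8 at +35.8 kb, 20.8, 29.3 and 21.2 at +85.8 kb, 60.1, 23.1 and 37.6 at +134 kb, 52.4, 35.3 and 78.8 at +174 kb, and 44.5, 11.4 and 44.7 at +187 kb. They were interspersed with, and distinct from, the positions open in DN2. The number of Bcl2 DHSs with a peak was 13, 11 and 14 in LSK, 19 and 10 in DN1, 23 and 22 in DN2a, 16 and 40 in DN2b, and 14, 12 and 15 in IgG (p = 0.00404, exact permutation, n = 4 and 8). At equal list lengths it was 8 and 10 in DN2a, 11 and 12 in DN2b, 12, 12 and 15 in IgG, and 5 to 7 in LSK and DN1 (p = 0.465, exact permutation). IgG and DN2 libraries then both held more than LSK and DN1.

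**Figure D4:**
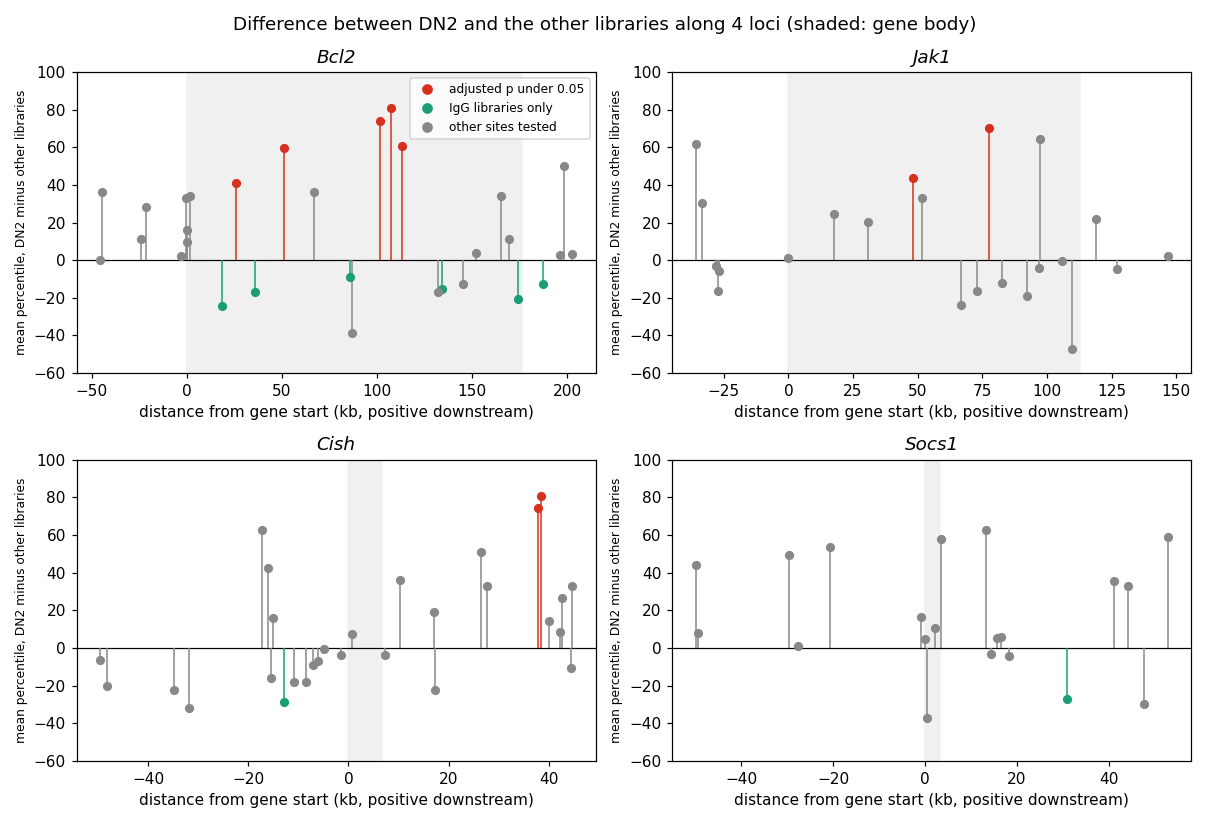
Difference in mean score percentile, DN2 libraries minus the other 8 (vertical axis, percentile points), of each DHS tested against its distance from the gene start (kb) for Bcl2, Jak1, Cish and Socs1. Red points have an adjusted p under 0.05, green points are DHSs found in the 3 IgG libraries alone, and shading is the gene body. The 5 red points of Bcl2 lie from 25.9 to 113 kb into the gene, among green points below 0.

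The promoters of 32 other genes of gamma chain cytokine and STAT signalling were described in the same way. Of these, 27 could be tested and 18 were open in all 12 libraries. None passed adjustment, and 7 were higher (25.9%, against 8.66%) and 1 lower at an unadjusted p below 0.05, with a median difference of 3.61 against 3.95 over all promoters. With lists of equal length 6 were higher (22.2%, against 7.69%) and 2 lower, with medians of 0.0317 and 0.0190. Of all 12195 promoters tested on the deposited lists, 1417 had an unadjusted p below 0.05 (exact permutation), and 1056 of these were higher. The counts of lower promoters have no share over all promoters beside them, so they are not a result about the list. Il2ra, Il9r and Ccnd3 needed their DN2 peaks to enter the test. Among the 24 promoters open in at least 3 libraries outside DN2, 4 were higher (16.7%, against 7.02% of all such promoters), and 2 of 23 with lists of equal length (8.70%, against 5.91%).

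The 7 higher promoters were those of Il2ra, Il9r, Il2rg, Il15ra, Il4ra, Ccnd3 and Bcl2l11. Crlf2, another receptor chain, was tested and differed by 3.41 (p = 0.143, exact permutation). Il2ra, the CD25 chain by which DN2 cells were sorted, scored 89.4 and 84.7 in DN2a and 89.8 and 93.0 in DN2b with no peak elsewhere, so that it entered the test through DN2 alone. Il9r, the receptor chain for IL-9, scored 50.6 and 53.4 in DN1, 85.0 and 81.5 in DN2a, and 89.4 and 95.8 in DN2b, with none in LSK or IgG. Il2rg, the common gamma chain that pairs with IL7R, scored 0, 60.5 and 0 in LSK, 67.7 and 49.5 in DN1, 63.6 and 72.1 in DN2a, and 69.9 and 87.8 in DN2b, with none in IgG. The DN2 values of Il2ra and Il9r lay above all others, while those of Il2rg overlapped DN1.

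Il15ra scored 58.6, 42.2 and 61.3 in LSK, 72.5 and 80.0 in DN1, 81.3 and 82.1 in DN2a, 80.3 and 92.4 in DN2b, and 0, 0 and 29.5 in IgG. Il21r and Il2rb had promoter peaks only in both DN2b libraries, at 69.9 and 78.5 and at 25.6 and 63.2. At equal list lengths Il21r scored 43.9 and 27.2 in DN2b, and Il2rb had no peak in any library. Ccnd3, a D-type cyclin, scored 59.4 and 58.6 in DN1, 67.3 and 67.7 in DN2a, and 84.1 and 84.6 in DN2b, with none in LSK or IgG. Differences from the other 8 libraries were 89.3 for Il2ra, 74.9 for Il9r, 61.2 for Ccnd3, 51.1 for Il2rg and 41.0 for Il15ra, with adjusted p-values from 0.147 to 0.382 (exact permutation). The promoter lower in DN2 was that of Mcl1, another BCL2 family survival gene, at 92.7 and 85.3 in DN2a and 90.7 and 93.0 in DN2b against 91.0 to 97.5 elsewhere (difference -4.37, p = 0.0202, adjusted p = 0.367, exact permutation). The DN2 and other values overlapped on the deposited lists. At equal list lengths every DN2 value of Mcl1, from 74.3 to 84.8, lay below every other value, from 88.2 to 97.1 (difference -12.3, p = 0.00202, adjusted p = 0.0688, exact permutation).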

How the data were processed

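DNase-seq peak lists of 12 mouse libraries were analysed. The authors aligned paired reads to mm10 (BWA 0.7.12 and SAMtools 1.2 in the submitters' processing notes) and called peaks per library, without pooling, in hotspot2 (false discovery rate 0.05). Each deposited list gives 150 bp peaks with a score of no stated meaning, used only as a rank. Autosomes and X were used (Python 3.11.15, numpy 2.4.6, pandas 2.3.3). Peaks overlapping by at least 1 bp in any libraries were merged. The value of a DHS was the highest mid-rank percentile of its peaks. The mean of the 4 DN2 libraries was compared with that of the remaining 8 (exact permutation test, two-sided, 495 divisions of the libraries, smallest p 0.00202), with Benjamini-Hochberg adjustment over the 88786 DHSs with a peak in at least 3 libraries, and likewise over the number of DHSs per gene and over promoters (midpoint within 1 kb of a start in GENCODE M21, where the study used an earlier release). The test was checked on simulated data. Replicates are separate isolates in the methods, and replicate numbers follow deposition order. No 2 lists were identical.

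All 10 genes were named, each with its promoter, DHSs open in all DN2 libraries and no other or the reverse, and up to 3 DHSs with the largest differences. Some others were chosen after their values were seen: the Il7r DHS at -3.46 kb, the DHSs in IgG libraries alone, the Jak1 DHS at +110 kb, the Cish DHS at +17.0 kb and the Socs1 DHS at -20.8 kb. Capitals were to mark TTCNNNGAA alone and were extended to the other strings. The members and lists were chosen with earlier results of these data known. Alternatives were equal list lengths, the upper 50% of each list, each library left out, no IgG libraries, presence as value, no filter, merging only peaks that shared 50 bp or any peaks up to 150 bp apart, windows of 10 kb, and promoter windows of 500 bp or 2.5 kb.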

Additional observations from a re-analysis of the deposited data

How the results depend on the processing

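The count of DHSs higher in DN2, 13, was 18 at equal list lengths (8 of the 13 among them), 11 of 121 tested in the upper 50% of each list (9.09%, against 5.20% of all DHSs), 13 of 185 and 12 of 175 under merging at 50 bp and within 150 bp (7.03%, against 4.21%, and 6.86%, against 4.24%), and 10 of 86 in windows of 10 kb (11.6%, against 4.21%). How many calls needed their DN2 peaks to enter the test was not counted under these alternatives. The count of DHSs higher in DN2 was 0 with DN2 against LSK and DN1 only, 0 with presence of a peak as value and 0 with no filter. Unadjusted, 29, 11 and 49 members were then higher at p below 0.05. Unadjusted counts under the alternatives have no share over all DHSs beside them, so they are not a result about the members. Leaving out 1 library gave from 0 to 16 calls, with 0 in 11 of the 12 cases. Over all DHSs the calls, 4386, were also 0 in these 11 cases and under those 3 settings, so the zeros are not particular to the members. The unadjusted count was 30 without DN2b replicate 2, the longest list, against 49 with it, and 65 without DN1 replicate 1. Loci, promoters and pathway promoters had 0 calls at equal list lengths, in the upper 50%, against LSK and DN1 only and with each library left out, as did loci in windows of 10 kb and promoters in the 500 bp and 2.5 kb windows. They were not run with presence, no filter or other merging. Differences changed sign at the Stat5b promoter DHS (-3.06 without DN2b replicate 2, in a range up to 23.1 over the libraries left out, and -2.01 against LSK and DN1 only), at the Socs2 promoter DHSs at +0.288 kb (-5.15 against LSK and DN1 only, -0.125 for presence) and -0.912 kb (-4.73 at equal list lengths), for the number of Jak1 DHSs (-0.25 at equal list lengths) and of Socs3 DHSs (-0.125 at equal list lengths, and from -1.5 without DN2b replicate 2 to 4.83 without DN2a replicate 2). The causes were not tested. No paired analysis was possible because replicate numbers come from deposition order and pair no libraries. Depth is unknown, so a missing peak in a short list does not show closed chromatin.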
